A study of Homo sapiens with 4 samples.

Results

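The genes of glucose breakdown and of the response to low oxygen were followed in IMR-32 cells, an established human neuroblastoma line with MYCN amplification, after knockdown of NeuroD1. The 33 genes were taken by name from a written list, out of 60612 genes in the count table. The rule used no measured value, but the list was drawn up with earlier results of these data known. Each was found under 1 Ensembl identifier, and 32 of the 33 passed the filter on low counts and entered the test across 17537 genes. The remaining gene was ADM, which encodes the vasodilator peptide adrenomedullin and had between 0 and 3 counts in a library.

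The study asked which transcripts depend on NeuroD1, a neurogenic transcription factor. All 4 libraries came from IMR-32 cells given doxycycline at 1 µg/mL for 48 h to switch on a short hairpin RNA, so the controls had the drug too. The shControl group (2 libraries, genotype labelled WT) expressed a control hairpin and the shNeuroD1 group (2 libraries) a hairpin against NeuroD1. Nothing in the labels tells if both libraries of a group came from the same culture. The numbers in the shNeuroD1 titles could be replicates or the names of 2 different hairpins, and p-values measure only the spread between these libraries.

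Glycolysis splits glucose into pyruvate in the cytosol. Hexokinase traps the sugar by phosphorylation, phosphofructokinase commits it to breakdown, and pyruvate kinase makes ATP in the last step. Lactate dehydrogenase then turns pyruvate into lactate, which monocarboxylate transporters carry out of the cell. Many of these enzymes exist as isozymes encoded by separate genes. Most of the genes are also targets of hypoxia-inducible factor (HIF), which gathers when oxygen is short, and several are known MYC family targets. The labels name no culture in low oxygen.

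The libraries held between 14665210 and 16482463 counts, and mitochondrial genes took 4.37% to 4.59% of counts in shControl and 5.39% to 5.51% in shNeuroD1. NEUROD1 itself had 418.9 and 414.5 CPM (counts relative to library size, scaled by TMM) in shControl and 63.7 and 58.2 CPM in shNeuroD1. It fell by 2.77 on the log2 scale (edgeR adjusted p = 8.6e-29, SE 0.0504), so the labels and the targeted gene had the same direction. All 8 adrenergic neuroblastoma markers were detected at a mean of at least 1 CPM. The catecholamine enzymes among them were low, with TH at 0.678 to 5.78 CPM and DBH at 0.722 to 1.56 CPM. The summed level of these 8 markers was 2125 to 2141 CPM in shControl and 1822 to 1862 CPM in shNeuroD1. Mesenchymal markers summed to 107 and 118 CPM in shControl and to 83.7 and 85.0 CPM in shNeuroD1, and Schwann cell markers to at most 9.59 CPM. All 4 blood markers and all 4 epithelial markers averaged under 1 CPM. In bulk libraries such as these, fewer cells with a transcript and less of it per cell cannot be told apart.

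With the libraries scaled by TMM, most of the core glycolytic transcripts were lower in shNeuroD1, while some isozymes of phosphofructokinase and enolase were higher. Of the 32 genes tested, 16 were lower and 8 were higher at an edgeR adjusted p under 0.05, and 8 passed in neither direction. Across all genes tested, 28.2% were lower and 26.8% were higher by the same rule, against 50% and 25% of the 32. The median log2 fold change of the 32 genes was -0.16, beside 0.01 for all genes tested. In each of the 32 genes the CPM values of the groups did not overlap, as was so for 76.1% of all genes tested. With an added limit of 1 on the size of the log2 fold change, 1 gene was lower (HK2, background 5.14%) and 2 were higher (CA9 and BHLHE40, background 8.79%).

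The split between lower and higher genes depended on how the libraries were scaled. Scaled by library size alone, 9 genes were lower and 13 higher, and the median of all genes tested moved to 0.12. ALDOA, BNIP3, LDHA, LDHB, PDK1, PGK1 and SLC16A1 were then no longer called. NDRG1, PFKFB2, PFKFB4, PFKL and SLC2A3 were called higher. Without shControl replicate 1 the counts were 13 lower and 4 higher, and without shNeuroD1 replicate 2 they were 14 lower and 5 higher. DESeq2 gave 13 and 4, and limma on log2(FPKM + 1) called 1 of the 25 genes it could test, HK2.

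**Figure D1:**
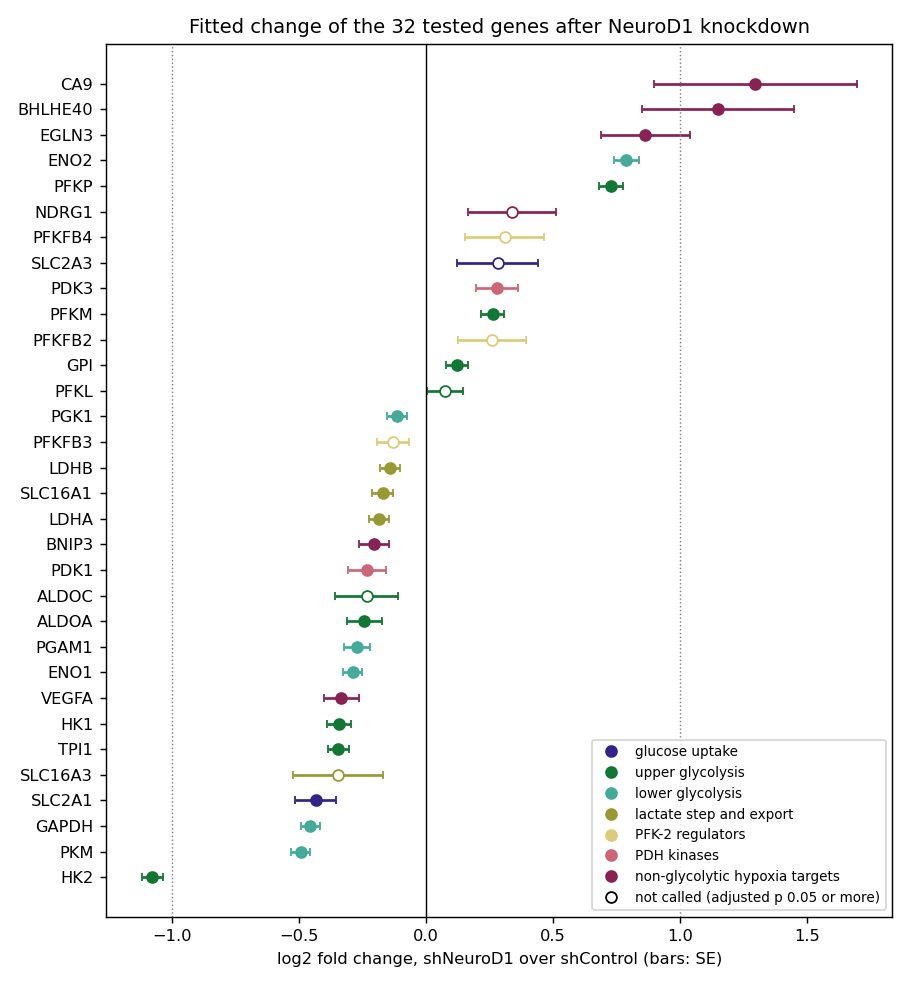
Fitted log2 fold change (shNeuroD1 over shControl, horizontal axis) of the 32 tested genes, with bars for the SE and colours for the role of the gene. Filled points were called at an edgeR adjusted p under 0.05. HK2 lies at -1.08, below all others, and 5 genes (PFKP, ENO2, EGLN3, BHLHE40 and CA9) lie above 0.5.

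The glycolytic enzymes from hexokinase to lactate dehydrogenase numbered 17, of which 11 were lower, 4 were higher and 2 were in neither class. These were 64.7% lower and 23.5% higher, beside 28.2% and 26.8% of all genes tested. Scaled by library size alone, ALDOA, PGK1, LDHA and LDHB among them were no longer called, and PFKL was called higher. The summed level of the 17 was 10297 and 10156 CPM in shControl and 8165 and 8044 CPM in shNeuroD1, or 79.3% of control. Of the 7 role groups, the enzymes from GAPDH to pyruvate kinase had the lowest summed level relative to control, 76.3%. The lactate step and export group stood at 89.2%. These sums rest on the TMM factors, 0.9585 and 0.9652 in shControl and 1.04 in both shNeuroD1 libraries. Such factors lower the shNeuroD1 sums relative to shControl, and the sums were not computed by library size alone. GAPDH and PKM had the highest CPM of the list, a scale that is not corrected for length, and so weighed most in the sums that hold them.

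HK2 encodes hexokinase 2, an isozyme that tumours often express. It had 605 and 636 CPM in shControl and 295 and 294 CPM in shNeuroD1. The shNeuroD1 values lay far below the control values and very close to each other. Its mean fell from 620 ± 21.4 CPM (SD, n = 2) to 294 ± 0.943 CPM (SD, n = 2), or 47.4% of control, with a log2 fold change of -1.08 (edgeR adjusted p = 2.0e-20, SE 0.0415). Scaled by library size alone the fold change was -0.96, still called but no longer beyond 1. HK1 encodes the isozyme that most tissues express. It had 192.5 and 189.9 CPM in shControl and 157 and 145 CPM in shNeuroD1, and fell less than HK2 did, with a log2 fold change of -0.34 (edgeR adjusted p = 2.7e-07, SE 0.0473).

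HK2 took a smaller share of the hexokinase transcripts in shNeuroD1. By the FPKM tables, which correct for transcript length, HK2 made up 67.0% and 67.9% of the summed FPKM of HK1 and HK2 in shControl. In shNeuroD1 its share was 53.7% and 55.0%. The groups did not overlap, and the same held by CPM per kb of exons, where the HK2 share was 77.1% ± 0.78 (SD, n = 2) in shControl and 66.9% ± 1.12 (SD, n = 2) in shNeuroD1. With 2 libraries against 2, an exact test of such shares cannot pass 0.05, and none was made.

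HK2 lies on chromosome 2 (GRCh38, 74833981 to 74893359, plus strand), and the deposited tables list a pair of transcript starts for it above 1 FPKM. The start at 74834127, which is also the RefSeq start, had 67.8 and 66.4 FPKM in shControl and 37.7 and 37.8 FPKM in shNeuroD1. The start at 74835170, about a kilobase downstream, had 9.81 and 14.8 FPKM in shControl against 1.23 and 0.0948 FPKM in shNeuroD1. Both starts were lower in each shNeuroD1 library than in each shControl library. These values are of assembled transcripts and were not tested.

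**Figure D2:**
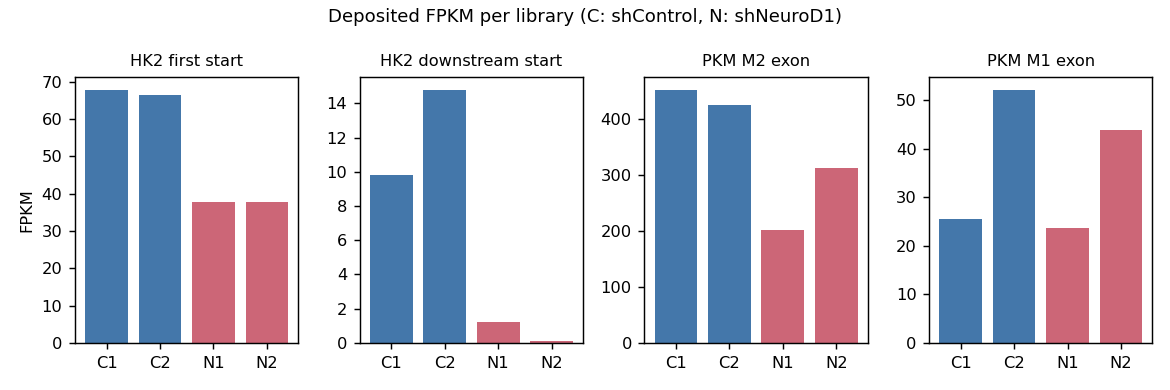
Deposited FPKM (vertical axes, each from 0) in the 4 libraries for the HK2 starts and for the alternative exons of PKM, with C1 and C2 for shControl and N1 and N2 for shNeuroD1. The downstream HK2 start is at 9.81 and 14.8 FPKM in shControl and at most 1.23 in shNeuroD1, while the PKM M1 exon overlaps between the groups.

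HIF binds a short core, ACGTG or GCGTG, in the promoters and enhancers of its targets. Of the 6 genes called with a fold change beyond 0.5 in size, HK2, ENO2, CA9 and BHLHE40 held this core in the 250 bases before their RefSeq start (GRCh38.p14), while PFKP and EGLN3 did not. Windows of 30 bases around the core closest to the RefSeq start are shown, because HK2 was lower while ENO2, CA9 and BHLHE40 were higher. The core is common, and occurred in the same span in 56.9% of 11812 promoters of genes tested. Capitals mark the core on either strand. The HK2 window is chr2:74834067-74834096 on the plus strand, the ENO2 window chr12:6914450-6914479 on the plus strand, the CA9 window chr9:35673898-35673927 on the plus strand and the BHLHE40 window chr3:4979276-4979305 on the plus strand.
HK2: aatggGCGTGcgCACGTcactgatccggag
ENO2: acccgcgctcgtACGTGcgcctccgccggc
CA9: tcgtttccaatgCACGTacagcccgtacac
BHLHE40: cacagggtagaaCACGTagctccaacccac

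The ENO2 window lies before the RefSeq start but inside the first exon of the main ENO2 transcript in the deposited tables (bases 6914327 to 6914659). The HK2 window held 2 of the 3 cores of its upstream sequence, and CA9 held a single core with its first base 18 bases before the start. Promoter sequences were at hand for 28 of the 33 genes and for 11812 genes tested. ACGTG or GCGTG on either strand occurred in 7 of 14 promoters of lower genes (50%) and in 5 of 8 promoters of higher genes (62.5%), against 56.9% of all 11812. Taken apart, ACGTG occurred in 42.9% of the 28 promoters (42.9% of the lower and 62.5% of the higher genes) and in 23% of all, and GCGTG in 35.7% of the 28 and in 45.2% of all. The RefSeq start of HK1, a lower gene, lies 48844 bases from the nearest start in the deposited tables. For the lower genes PKM, TPI1 and PGAM1 the nearest deposited start was at -434, -412 and -284 bases from the RefSeq start (negative is upstream). For the higher gene ENO2 it was at -253. These starts all lie before the window searched. HK1, PKM, TPI1 and PGAM1 were counted as without a core, so the share for lower genes rests partly on windows away from the deposited starts. The MYC-type E-box CACGTG, which contains ACGTG, occurred in 17.9% of the 28 and in 8.84% of all. The neuronal E-boxes CAGATG and CAGCTG occurred in 10.7% and 7.14% of the 28, against 8.23% and 13% of all. These are matches of letters in a short window and not measured binding.

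Phosphofructokinase-1 commits glucose to glycolysis and is built from platelet (PFKP), muscle (PFKM) and liver (PFKL) type subunits. PFKP had 141 and 149 CPM in shControl and 244 and 237 CPM in shNeuroD1. The groups were well apart, and the log2 fold change was 0.73 (edgeR adjusted p = 6.8e-15, SE 0.0461). PFKM had 163 and 165.5 CPM in shControl and 198 and 196 CPM in shNeuroD1, a log2 fold change of 0.26 (edgeR adjusted p = 8.4e-06, SE 0.0449). PFKL had 42.1 and 40.6 CPM in shControl and 43.7 and 43.3 CPM in shNeuroD1, and did not pass the test (log2 fold change 0.08, edgeR adjusted p = 0.374). PFKM shares 8.58% of its exon bases with SENP1 on the opposite strand, and the use of strand in counting was not stated.

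Within this family PFKP held the largest share per length in every library. Its share of the summed CPM per kb of exons was 52.0% and 53.2% in shControl, against 61.3% and 60.8% in shNeuroD1. PFKM held 39.6% and 39.0% in shControl and 32.8% and 33.2% in shNeuroD1, so its share was smaller although its level was higher. FPKM values are not listed under the identifiers of PFKP, GPI and PFKFB4, and these shares therefore rest on counts alone.

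The other enzymes before GAPDH changed less. GPI, which interconverts glucose and fructose phosphates, had 218.2 and 218.1 CPM in shControl and 236 and 239 CPM in shNeuroD1, and was called higher by a log2 fold change of 0.12 (edgeR adjusted p = 0.0162, SE 0.0432). This call was lost under DESeq2 and when any of the 4 libraries was left out. TPI1, the triose phosphate isomerase, had 682 and 639 CPM in shControl and 529 and 511 CPM in shNeuroD1, with a log2 fold change of -0.34 (edgeR adjusted p = 1.6e-08, SE 0.0413). The aldolases split fructose bisphosphate. ALDOA was called lower (log2 fold change -0.24, edgeR adjusted p = 0.0033), a call lost under DESeq2 and without shControl replicate 2, and the neural isozyme ALDOC was not (log2 fold change -0.23, edgeR adjusted p = 0.114).

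The count of ALDOA is uncertain. 42.3% of its exon bases lie in exons of AC093512.2 on the same strand, and its level per length by counts was 10.8 to 13.4 CPM per kb, against 120 to 247 FPKM in the deposited tables. The FPKM values were 184 and 247 in shControl and 239 and 120 in shNeuroD1, which overlap. LDHB shares 33.4% of its exon bases with AC010197.2 in the same way.

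GAPDH, which oxidises glyceraldehyde phosphate and was the reference gene of the study for qRT-PCR, was the most abundant transcript of the list per length (1203 and 1172 CPM per kb of exons in shControl). It had 3585 and 3493 CPM in shControl and 2620 and 2545 CPM in shNeuroD1. The lower group lay at 73.0% of control, clear of the spread, with a log2 fold change of -0.45 (edgeR adjusted p = 2.7e-12, SE 0.0366). GAPDH has 65 annotated pseudogenes in the table, and their summed counts reached at most 0.336% of those of GAPDH.

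PGK1 and PGAM1 carry out the steps after GAPDH. PGK1, the phosphoglycerate kinase, had 400 and 393 CPM in shControl and 373 and 360 CPM in shNeuroD1, and fell by 0.11 on the log2 scale (edgeR adjusted p = 0.0199, SE 0.0411). The call was lost when shControl replicate 1 or either shNeuroD1 library was left out. PGAM1, the phosphoglycerate mutase, fell by 0.27 (edgeR adjusted p = 2.6e-05, SE 0.0497), to 82.9% of control.

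Enolase makes phosphoenolpyruvate. ENO1 encodes the ubiquitous alpha subunit and ENO2 the gamma subunit, known as neuron-specific enolase and used as a serum marker in neuroblastoma. ENO1 had 819 and 834 CPM in shControl and 672 and 682 CPM in shNeuroD1, a log2 fold change of -0.29 (edgeR adjusted p = 1.4e-07, SE 0.0386). ENO2 had 100.1 and 104 CPM in shControl and 176.2 and 176.1 CPM in shNeuroD1, a log2 fold change of 0.79 (edgeR adjusted p = 2.7e-15, SE 0.0481). The isozymes thus moved in opposite directions, and neither overlapped between the groups. The ratio of ENO1 to ENO2 counts was 8.18 and 8.05 in shControl, against 3.82 and 3.87 in shNeuroD1.

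Per length, ENO2 made up 7.92% and 8.78% of enolase FPKM in shControl and 16.1% and 19.6% in shNeuroD1. By CPM per kb of exons its share was 13.1% and 13.3% in shControl, against 24.4% and 24.1% in shNeuroD1. ENO1 stayed the main enolase transcript in every library. Starts that the tables assign to ENO2 but that lie outside the gene were left out of the FPKM share.

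**Figure D3:**
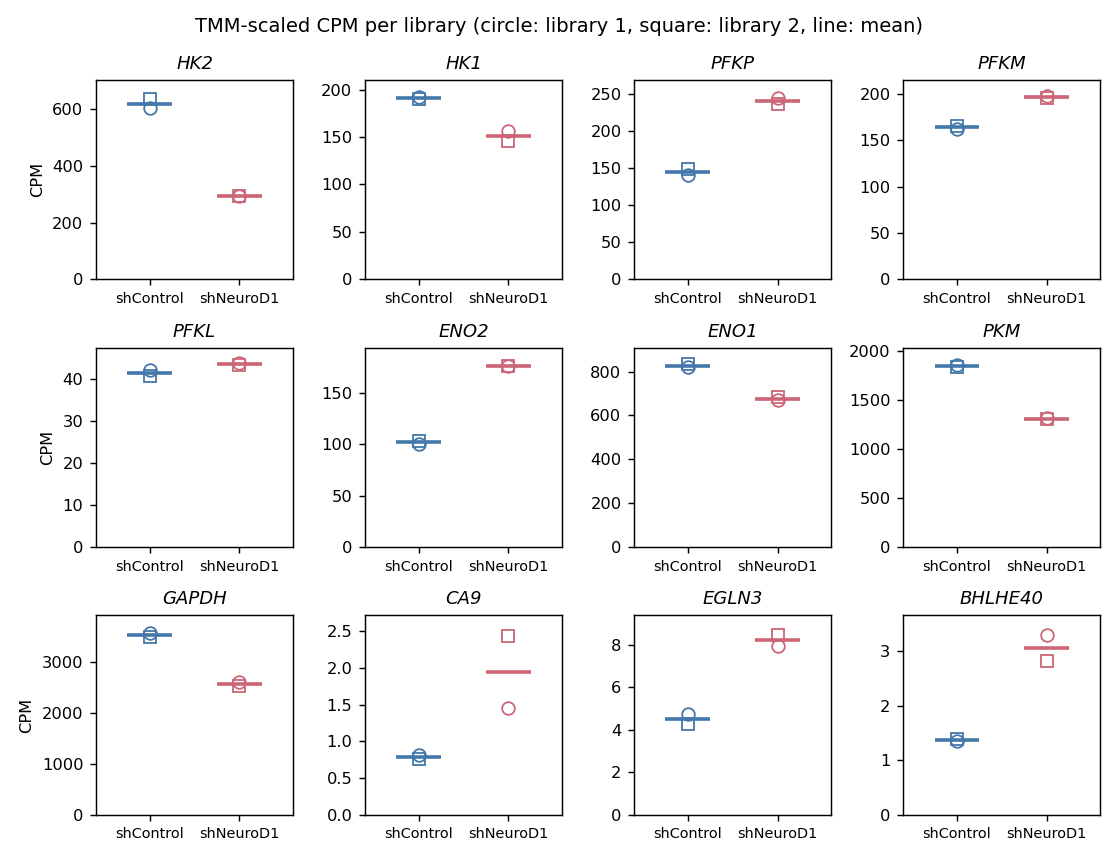
TMM-scaled CPM (vertical axes, each from 0) of 12 genes in the 4 libraries, with circles for library 1, squares for library 2 and lines for group means. The libraries of a group lie least close together for CA9, and HK2, HK1, ENO1, PKM and GAPDH are lower while PFKP, PFKM, ENO2, EGLN3 and BHLHE40 are higher in shNeuroD1.

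PKM encodes the muscle-type pyruvate kinase, which makes pyruvate and ATP. It had 1855 and 1831.5 CPM in shControl and 1319 and 1300.3 CPM in shNeuroD1. It lay at 71.1% of control, close to the 73.0% of GAPDH, with a log2 fold change of -0.49 (edgeR adjusted p = 5.2e-13, SE 0.0371). PKM lies on chromosome 15 (72199029 to 72231822, minus strand) and is spliced with a choice between 2 neighbouring coding exons of equal length. The M1 exon gives the isoform of adult muscle and brain, and the M2 exon gives that of embryonic and proliferating cells.

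The alternative exons are shown because the tables list an FPKM for each of them. Both were read from GENCODE 29 transcripts in the direction of transcription, from chr15:72203022-72203188 (M1) and chr15:72202454-72202620 (M2), minus strand. Capitals mark the 62 of 167 positions at which the exons differ.
M1: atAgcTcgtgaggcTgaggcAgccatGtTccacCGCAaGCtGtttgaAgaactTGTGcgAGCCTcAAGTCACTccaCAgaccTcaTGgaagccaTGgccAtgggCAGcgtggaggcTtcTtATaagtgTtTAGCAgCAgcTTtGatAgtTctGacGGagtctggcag
M2: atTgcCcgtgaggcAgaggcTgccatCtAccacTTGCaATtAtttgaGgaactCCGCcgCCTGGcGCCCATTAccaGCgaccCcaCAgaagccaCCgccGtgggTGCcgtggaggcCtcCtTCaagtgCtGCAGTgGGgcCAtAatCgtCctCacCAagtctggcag

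The M2 exon prevailed in every library. It had 451.5 and 425 FPKM in shControl and 201 and 313 FPKM in shNeuroD1, while the M1 exon had 25.5 and 52.2 FPKM and 23.6 and 43.9 FPKM. The M2 exon thus took 94.6% and 89.0% of the sum in shControl and 89.5% and 87.7% in shNeuroD1. The shares overlapped between the groups, and the mean of 91.8% ± 3.96 (SD, n = 2) in shControl differed from that of 88.6% ± 1.29 (SD, n = 2) in shNeuroD1 by less than the spread in shControl. The libraries of shNeuroD1 differed more in PKM FPKM than in PKM counts.

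The lactate step changed little in size. LDHA, the isozyme linked to lactate production, fell by 0.18 on the log2 scale (edgeR adjusted p = 1.7e-04, SE 0.0389). LDHB, the heart-type isozyme, fell by 0.14 (edgeR adjusted p = 0.0038, SE 0.0406). The ratio of LDHA to LDHB counts, not corrected for length, was 1.11 and 1.19 in shControl, against 1.12 in both shNeuroD1 libraries. The balance of the isozymes thus overlapped between the groups. Per length LDHB was the larger, with 63.7% to 65.1% of their summed CPM per kb of exons and 68.3% to 74.7% of their FPKM. By FPKM both genes had a fold change of the opposite sign that was not called, and the LDHB call was lost when either shNeuroD1 library was left out.

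Transcripts of the main listed carriers at both ends of the pathway were lower, and transport itself was not measured. SLC2A1 (GLUT1), the widespread glucose transporter, had 35.8 and 35.0 CPM in shControl and 25.8 and 26.5 CPM in shNeuroD1, a log2 fold change of -0.43 (edgeR adjusted p = 3.1e-05, SE 0.0808). SLC2A3 (GLUT3), the high-affinity neuronal transporter, had 7.67 and 6.30 CPM in shControl and 8.48 and 8.47 CPM in shNeuroD1 and did not pass the test (log2 fold change 0.28, edgeR adjusted p = 0.134). SLC16A1 (MCT1), which carries lactate and pyruvate, fell by 0.17 on the log2 scale (edgeR adjusted p = 7.9e-04). Scaled by library size alone, its log2 fold change was -0.058 and it was not called. SLC16A3 (MCT4), the exporter of strongly glycolytic cells, was at 5.39 to 8.12 CPM and was not called (log2 fold change -0.35, edgeR adjusted p = 0.0987). MCT1 made up at least 98.7% of the summed CPM per kb of this pair.

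**Figure D4:**
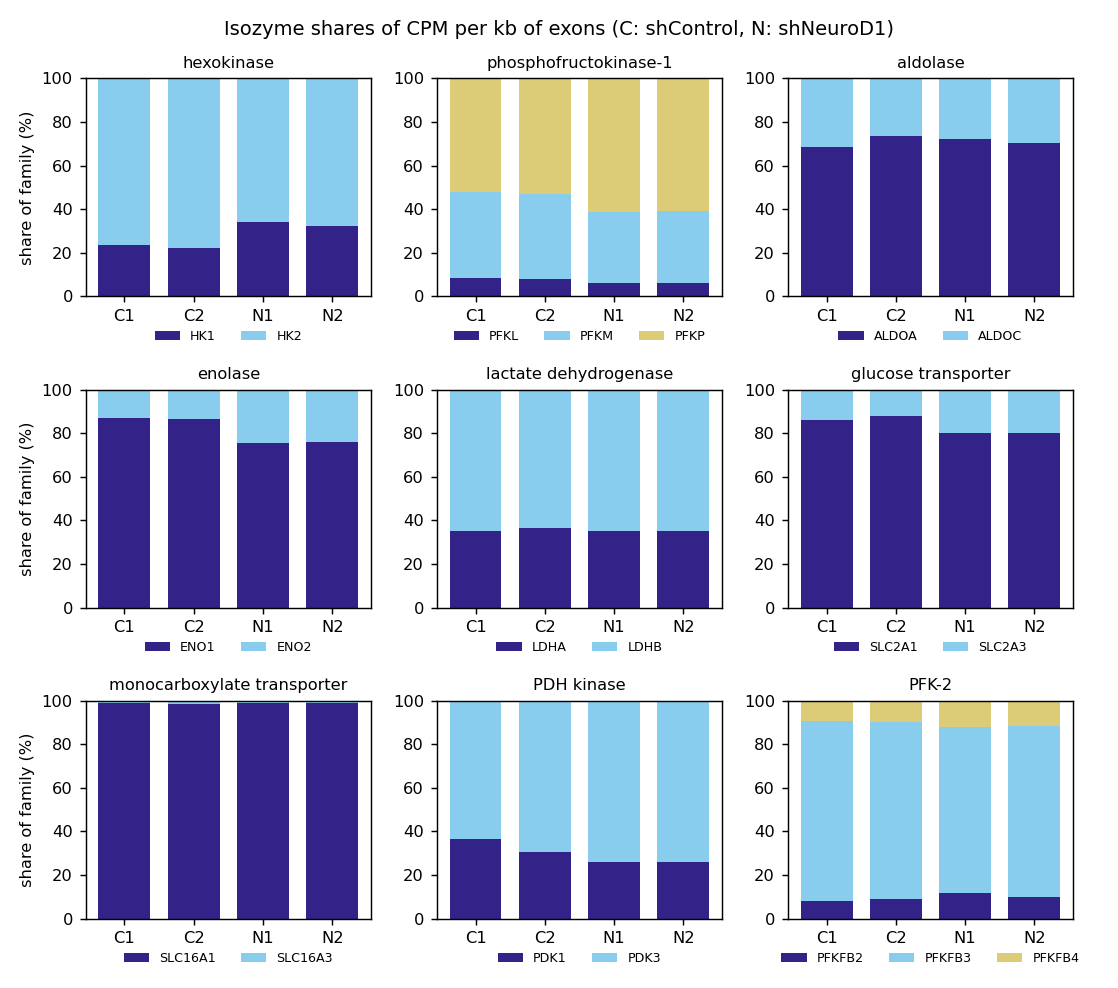
Share of each isozyme (vertical axis, %) in the summed CPM per kb of exons of its family in the 4 libraries, with C for shControl and N for shNeuroD1. HK1, PFKP, ENO2 and SLC2A3 take larger shares in both shNeuroD1 libraries, while the aldolase, lactate dehydrogenase and monocarboxylate transporter shares overlap.

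The enzymes that set the level of fructose 2,6-bisphosphate, the activator of phosphofructokinase-1, were not called. PFKFB2 had a log2 fold change of 0.26 (edgeR adjusted p = 0.0991), PFKFB3 of -0.13 (edgeR adjusted p = 0.0855) and PFKFB4 of 0.31 (edgeR adjusted p = 0.0898). PFKFB3 was the most abundant of them, with 76.0% to 82.6% of their CPM per kb.

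The pyruvate dehydrogenase kinases of the list, PDK1 and PDK3, which inhibit pyruvate dehydrogenase, moved in opposite directions. PDK1, a classical HIF target, had 47.3 and 41.2 CPM in shControl and 37.1 and 38.2 CPM in shNeuroD1, a log2 fold change of -0.23 (edgeR adjusted p = 0.0104, SE 0.0756). PDK3 had 27.3 and 31.4 CPM in shControl and 34.8 and 36.5 CPM in shNeuroD1, a log2 fold change of 0.28 (edgeR adjusted p = 0.0048, SE 0.0825). Neither call was kept by DESeq2 (adjusted p = 0.122 for PDK1 and 0.133 for PDK3). The fold change of PDK3 turned to -0.09 in limma on log2(FPKM + 1).

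The hypoxia-response genes outside glycolysis did not move together. Of the 6 tested, BNIP3 and VEGFA were lower, CA9, EGLN3 and BHLHE40 were higher, and NDRG1 was not called. These are 33.3% lower and 50% higher, beside 28.2% and 26.8% of all genes tested. VEGFA, the main growth factor of blood vessels, had 49.6 and 48.7 CPM in shControl and 39.0 CPM in both shNeuroD1 libraries, a log2 fold change of -0.33 (edgeR adjusted p = 1.2e-04, SE 0.0688). By FPKM it was at 9.14 and 8.19 in shControl and at 9.59 and 10.2 in shNeuroD1, higher rather than lower, and was not called. BNIP3, a mitophagy receptor, fell by 0.20 (edgeR adjusted p = 0.0032, SE 0.0576), and its call was lost without shControl replicate 1 and under DESeq2 (adjusted p = 0.0539). BNIP3 has 44 annotated pseudogenes, whose summed counts reached 9.3% of its own.

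EGLN3 encodes PHD3, an oxygen-dependent prolyl hydroxylase that HIF itself induces. It had 4.75 and 4.28 CPM in shControl and 7.95 and 8.47 CPM in shNeuroD1, from 68 to 129 counts a library. Its level was 182% of control, with a log2 fold change of 0.86 (edgeR adjusted p = 1.0e-04, SE 0.176), and it kept its call under DESeq2 (adjusted p = 0.0163). BHLHE40, a basic helix-loop-helix repressor, was counted 20 and 22 times in shControl against 50 and 43 times in shNeuroD1. These were 1.36 and 1.39 CPM against 3.29 and 2.82 CPM, and the log2 fold change was 1.15 (edgeR adjusted p = 0.0015, SE 0.299), with a DESeq2 adjusted p of 0.0708.

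CA9, the cell-surface carbonic anhydrase used as a marker of hypoxia, had 12 counts in each shControl library against 22 and 37 in shNeuroD1. These were 0.814 and 0.756 CPM against 1.45 and 2.43 CPM. The groups did not overlap, but the shNeuroD1 libraries differed from each other more than the controls did. Its log2 fold change was 1.30 (edgeR adjusted p = 0.0065, SE 0.399), and DESeq2 gave an adjusted p of 0.131. CA9 shares 38.5% of its exon bases with ARHGEF39 on the opposite strand, which had 251 and 267 counts in shControl against 154 and 164 in shNeuroD1. Past both thresholds the 2 higher genes were down to 0 without shControl replicate 1, and to 1 (BHLHE40) without shControl replicate 2 or without shNeuroD1 replicate 2. NDRG1, a growth-related gene that stress induces, had a log2 fold change of 0.34 (edgeR adjusted p = 0.0998).

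Neighbouring pathways were examined through 7 lists that held 113 further genes, of which 96 were tested. 32 were lower and 24 were higher at an edgeR adjusted p under 0.05, or 33.3% and 25%, against the 28.2% and 26.8% of all genes tested, and their median log2 fold change was -0.03. Scaled by library size alone, 24 were lower and 30 higher. DESeq2 called 23 lower and 10 higher, limma on log2(FPKM + 1) called 0 and 3 of 67, and leaving out shControl replicate 1 or 2 gave 19 and 13 or 22 and 15. The single lists below hold 6 to 36 tested genes. Among glycolytic enzymes and isozymes outside the 33, 3 of 11 were lower and 3 of 11 higher, or 27.3% each. FBP1, the gluconeogenic phosphatase that opposes phosphofructokinase-1, had 3.26 and 2.71 CPM in shControl and 28.3 and 27.6 CPM in shNeuroD1. Its log2 fold change was 3.23 (edgeR adjusted p = 6.2e-19, SE 0.142).

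Among pyruvate entry genes 4 of 12 were lower and 2 of 12 higher, and among pentose phosphate enzymes 2 of 8 and 3 of 8. These are 33.3% and 16.7%, and 25% and 37.5%, beside 28.2% lower and 26.8% higher over all genes. The other glucose and monocarboxylate carriers had 4 of 10 lower (40%) and 5 of 10 higher (50%). They included SLC2A11, a sugar transporter, with 8.21 and 8.25 CPM in shControl and 21.6 and 20.8 CPM in shNeuroD1 (log2 fold change 1.36, edgeR adjusted p = 2.3e-11).

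For oxygen sensing and HIF subunits, 6 of 13 genes were lower (46.2%, beside 28.2% of all genes) and 2 of 13 higher (15.4%, beside 26.8%), all with changes under 1 in size. HIF1A, the main HIF subunit, was chosen after its values were seen. It had 248.0 and 247.6 CPM in shControl and 229.5 and 232 CPM in shNeuroD1, a log2 fold change of -0.10 (edgeR adjusted p = 0.0435, SE 0.0429). This call was lost under DESeq2 (adjusted p = 0.0942), with a minimum mean of 1 CPM (edgeR adjusted p = 0.075) and when any library was left out, and the fold change was 0.01 when scaled by library size alone. Among 36 other tested HIF targets, 12 were lower and 8 higher (33.3% and 22.2%, beside 28.2% and 26.8% of all genes), with a median of -0.13. The collagen-crosslinking oxidase LOXL2 was at 9.91 and 10.6 CPM in shControl and 5.0 and 4.47 CPM in shNeuroD1 (log2 fold change -1.12, edgeR adjusted p = 7.0e-07). The creatine transporter SLC6A8 was at 14.3 and 14.7 CPM in shControl and 39.9 and 37.0 CPM in shNeuroD1 (log2 fold change 1.41, edgeR adjusted p = 1.4e-14). Of the glucose-sensing factors and their targets, 1 of 6 was lower and 1 of 6 higher, or 16.7% each.

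**Figure D5:**
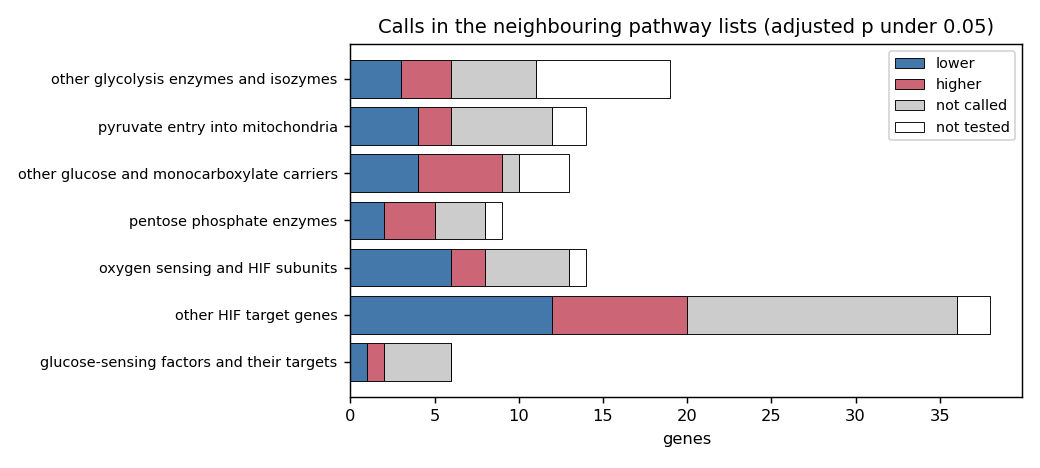
Number of genes (horizontal axis) lower, higher, not called or not tested in each of the 7 neighbouring lists, at an edgeR adjusted p under 0.05. The other HIF targets hold 12 lower and 8 higher genes, and the carriers hold 4 lower and 5 higher of 10 tested.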

How the data were processed

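RNA sequencing libraries of 2 shControl and 2 shNeuroD1 samples were used, grouped by their titles. The authors deposited raw counts per Ensembl gene, and the submitters' processing notes list cutadapt 1.9.1, HISAT2 2.0.1, HTSeq 0.6.1, DESeq2 and hg38 without roles. The use of strand is not given in the sources used here. The authors also deposited FPKM values per library for transcript starts, ends and splicing events of assembled transcripts, listed only above 0. The tool is not given in the sources used here, and 24700 repeated lines were dropped. Gene FPKM was the sum over starts.

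Counts were fitted in edgeR 4.0.16 (R 4.3.3): filterByExpr with a minimum count of 10, TMM scaling and the two-sided quasi-likelihood F test, with Benjamini-Hochberg adjustment over 17537 genes. The SE was the size of the log2 fold change divided by the square root of F. The fit was also run on counts simulated from the mean levels and dispersions of these data. That run could not test the choice of scaling or whether the libraries were independent. CPM per kb used the merged exons of GENCODE 29. FPKM shares used starts within 1000 bases of the annotated gene. Promoters came from RefSeq (GRCh38.p14).

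Alternatives were DESeq2 1.42.0, its size factors in edgeR, library size alone, no filter, a mean of at least 1 CPM, a replicate block, leaving out each library, and limma 3.58.1 on log2(FPKM + 1) and log2(FPKM + 0.1). Members, lists and tests were chosen with earlier results of these data known. Values in every library are given for genes called with a log2 fold change beyond 0.5, their isozymes and GAPDH, and from each list for at most the 3 largest changes beyond both thresholds (0.05 and 1) that average 5 CPM or more. Values shown for other genes were chosen after they were seen.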

Additional observations from a re-analysis of the deposited data

How the results depend on the processing

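DESeq2 size factors, a mean of at least 1 CPM and the replicate block gave the same 16 lower and 8 higher genes as reported. The deviations of same-numbered libraries from their group means had a correlation of 0.0158 across genes tested. With 2 libraries a group this cannot tell if same-numbered libraries were prepared together. With the block the median log2 fold change was -0.155. The setting that mattered most among the count fits was the scaling. With library size alone 9 genes were lower, 13 higher and 0 lower past both thresholds, and the median was -0.043. Without a filter the median was -0.185. DESeq2 called 4 higher genes, 0 of them past both thresholds, with a median of -0.185. Without ALDOA, LDHB and CA9, which share at least 25% of their exon bases with another gene (chosen after seeing the data), 1 higher gene was past both thresholds. When each library was left out in turn, lower genes numbered 13 to 15, higher genes 4 to 7 and higher genes past both thresholds 0 to 2, with the median between -0.172 and -0.126, and no gene changed sign.

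limma on log2(FPKM + 1), on log2(FPKM + 0.1) and on log2(FPKM + 1) without a filter each called 1 lower gene (HK2) and 0 higher genes, none past both thresholds upward. Their medians were -0.099, -0.130 and -0.056. Under these settings, in the same order, the fold change reversed for PFKL (-0.099, -0.109 and -0.099), PGK1 (0.092, 0.093 and 0.092), LDHA (0.181, 0.182 and 0.181), LDHB (0.048, 0.049 and 0.048), PDK3 (-0.094, -0.145 and -0.094) and VEGFA (0.174, 0.191 and 0.174). The cause was not tested. With 2 libraries a group and low counts, changes in CA9, BHLHE40 and ADM rest on few reads. Genes of the 7 neighbouring lists numbered 19 to 26 lower and 13 to 19 higher when each library was left out.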
